A study of Mus musculus with 6 samples.

Results

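Transcripts of 10 genes of the hypoxia response and of glycolysis were compared between lungs of mouse embryos with a Smad1 conditional knockout (CKO) in the lung epithelium and wild type lungs. The members were Hif1a, Epas1, Egln3, Slc2a1, Hk2, Pgk1, Ldha, Pdk1, Bnip3 and Ankrd37. They were chosen by name, as all probe sets to which the platform annotation gives 1 of these symbols, which found 22 of the 45037 probe sets tested. Each gene had between 1 and 4 probe sets, and the brightest of them, by its mean, stands for the gene unless another is named. RNA came from the left lobe at E18.5, close to term, of 3 Smad1 CKO and 3 wild type embryos (strain C57/BL6), which the study describes as 3 pairs. Every animal had its own array (Affymetrix Mouse430_2). The line that drives the deletion, its cell type range within the epithelium and whether wild type animals carry any of its alleles were not stated in the labels. The lobe also holds endothelium, mesenchyme and blood, in which Smad1 was not targeted, and less RNA per cell cannot be told apart from fewer cells of a type.

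Hypoxia-inducible factors (HIFs) are transcription factors made of an oxygen-sensitive alpha subunit and a stable beta subunit. When oxygen is plentiful, prolyl hydroxylases mark the alpha subunit for destruction, so HIF activity is set mainly at the protein level and mRNA of the subunit need not follow it. Active HIF binds short DNA sites called hypoxia response elements and raises genes of glucose uptake, glycolysis and lactate production, together with genes that lower mitochondrial oxygen use. The fetal lung develops in low oxygen, and Epas1 (HIF-2 alpha) is known there for its role in endothelium and in the type 2 cells that make surfactant.

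Values are deposited intensity, and differences are log2(intensity + 1), Smad1 CKO minus wild type, averaged over 3 pairs and given with the SD of the pair values. One array, Smad1 CKO 3, was unlike the rest in its control probe sets. Ribosomal 18S RNA read 2887 on it, against 267 and 283 on the other CKO arrays and 243 to 297 in wild type. All 10 members lay among the brightest 15012 probe sets. In pairs 1 to 3 the median difference of these 15012 was -0.30, -0.02 and -0.96, and the last pair holds that array. Pair values, or the value without pair 3, are therefore given for the members and for lists and genes that depend on it. Smad1 itself, read by probe sets that may lie outside the deleted part, was at 1111, 1577 and 529 in CKO lungs and 1026, 1089 and 739 in wild type lungs, so it does not check the genotype labels. The pooled markers of type 2 cells were present on every array, with summed intensities of 13340 to 47237 in CKO lungs and 70719 to 80712 in wild type lungs.

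Of the 9 members with a sequence in the RefSeq promoter table (build GRCm38.p6), those whose annotated start is the outer edge of the gene are printed here, to show where the letters of the HIF binding core stand in them. Each is the 250 bases before the start, 5′ to 3′ on the gene's own strand. Capitals mark ACGTG, the core of the hypoxia response element, and its variant GCGTG, searched on both strands. On the opposite strand the core reads CACGT and the variant reads CACGC instead. Where the core overlaps its own reverse, as CACGTG, the letters also form an E-box.
Slc2a1 (chr4:119108495-119108744, plus strand): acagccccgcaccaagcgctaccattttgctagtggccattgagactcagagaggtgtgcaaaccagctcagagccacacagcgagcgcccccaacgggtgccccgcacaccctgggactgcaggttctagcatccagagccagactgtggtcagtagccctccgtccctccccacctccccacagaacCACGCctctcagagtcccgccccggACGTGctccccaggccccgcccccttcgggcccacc 
Hk2 (chr6:82774455-82774704, minus strand): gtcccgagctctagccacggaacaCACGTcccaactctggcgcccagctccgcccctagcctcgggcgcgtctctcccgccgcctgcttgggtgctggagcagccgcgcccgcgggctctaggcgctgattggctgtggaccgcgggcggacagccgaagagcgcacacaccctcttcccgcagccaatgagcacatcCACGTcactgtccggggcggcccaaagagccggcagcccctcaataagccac 
Pgk1 (chrX:106186850-106187099, plus strand): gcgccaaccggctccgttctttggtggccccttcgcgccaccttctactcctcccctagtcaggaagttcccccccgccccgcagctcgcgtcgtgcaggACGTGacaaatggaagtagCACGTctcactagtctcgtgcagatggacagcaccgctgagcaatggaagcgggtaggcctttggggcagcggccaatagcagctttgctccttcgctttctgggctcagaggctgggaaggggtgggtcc 
Bnip3 (chr7:138909507-138909756, minus strand): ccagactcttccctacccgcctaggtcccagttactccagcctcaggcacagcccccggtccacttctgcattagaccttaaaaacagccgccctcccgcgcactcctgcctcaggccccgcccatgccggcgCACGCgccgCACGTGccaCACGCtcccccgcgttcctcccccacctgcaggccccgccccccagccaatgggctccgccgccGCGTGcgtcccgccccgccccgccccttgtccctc 
Egln3 (chr12:54203875-54204124, minus strand): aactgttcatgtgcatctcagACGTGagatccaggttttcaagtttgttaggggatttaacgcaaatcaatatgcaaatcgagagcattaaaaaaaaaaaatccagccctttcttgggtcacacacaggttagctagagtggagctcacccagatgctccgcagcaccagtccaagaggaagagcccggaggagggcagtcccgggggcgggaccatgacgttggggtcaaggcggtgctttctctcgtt

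At least 1 match lay in a window of 9 of the 9 members, and 8 of the 9 had ACGTG. Over all 32851 promoter windows of this length, 38.6% held either motif and 16.6% held ACGTG. These shares are per window, whereas a member counted with a match in any of its windows, and Ldha and Pdk1 had 2 each. Pgk1 had 2 matches, which began 150 and 131 bases before the start. Bnip3 had 5 matches, with its CACGTG counted on both strands. Hk2 had 2, of which the nearer began 52 bases before the start. Slc2a1 had 1 of each motif, and the single match of Egln3 began 229 bases before the start. A match in these letters is a description and not a measured binding site.

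None of the 10 genes passed the test across all probe sets, and 8 of them differed in opposite directions between pairs. Epas1 and Ankrd37 were the members whose level was lower in the CKO lung of all 3 pairs, by 2.05-fold and 1.70-fold on average. That is 2 of 10 genes and 3 of 22 probe sets, against 24.1% of all probe sets and 47% of the brightest 15012. The remaining 8 genes were higher in the CKO lung of pair 2 and lower in that of pair 3. In pair 2, Smad1 CKO 2 had the highest level of all 6 arrays for each of these 8. By limma, 0 of the 22 probe sets had an adjusted p under 0.05, against 0.00222% of all probe sets lower and 0% higher. At an unadjusted p under 0.05, 2 of 22 were lower (Epas1 and Ankrd37), against 8.4% of all probe sets and 16.2% of the brightest 15012, and 0 of 22 were higher, against 4.29% of all probe sets. Epas1 stayed under that unadjusted limit in 8 of 13 alternative analyses and Ankrd37 in 6 of 13. For Ankrd37 the choice of probe set, counted among these, repeats the main fit, since it has 1 probe set. Both genes were lost without the pair as a block and without Smad1 CKO 3. Epas1 was also lost with the pair as a random block, with an intensity trend and for its dimmer probe set. Ankrd37 was also lost after either normalization, without pair 1 and without pair 3.

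**Figure D1:**
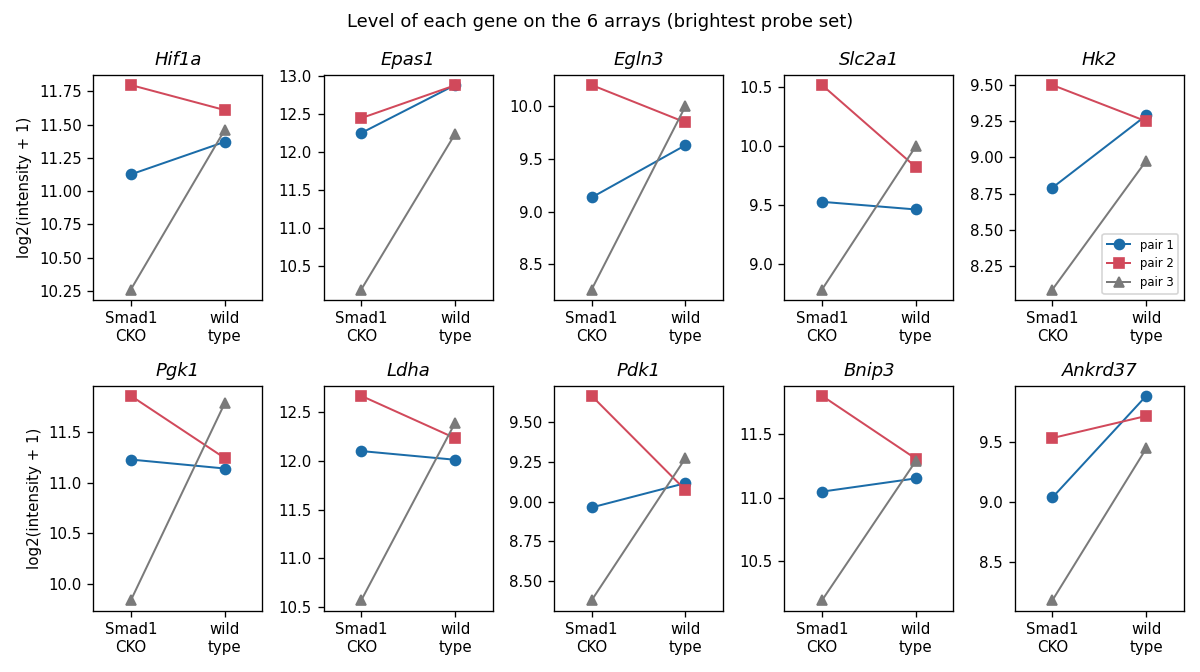
Level of each gene on the 6 arrays as log2(intensity + 1) of its brightest probe set, with Smad1 CKO at the left and wild type at the right of each panel, lines joining the arrays of a pair and a separate vertical scale per panel. The lines of all 3 pairs run the same way for Epas1 and Ankrd37, while for the other 8 genes Smad1 CKO 2 is the highest point and Smad1 CKO 3 the lowest.

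The alpha subunits came first. Epas1 had intensities of 4866, 5574 and 1165 in Smad1 CKO lungs 1 to 3, against 7540, 7522 and 4826 in wild type lungs 1 to 3. Each CKO lung was below the wild type lung of its own pair, although the groups overlapped because wild type 3 was below both CKO 1 and CKO 2. The difference was -1.04 ± 0.88 (SD), or -0.63, -0.43 and -2.05 by pair, with -1.90 and -0.18 as the bounds of the 95% interval (limma, adjusted p = 0.367). The dimmer probe set of Epas1 was lower in all 3 pairs too, at -0.65 ± 0.57 (adjusted p = 0.367). Without pair 3 the difference was -0.53, and after cyclic loess normalization, which evens out shifts that depend on brightness, it was -0.39 ± 0.09 (-0.44, -0.44 and -0.28 by pair, adjusted p = 0.341). The size thus depended on pair 3 by more than 1.5 times. Changing the block, adding an intensity trend or leaving out the dimmest probe sets cannot move this mean difference. With these counted, the direction was the same in all 13 alternative analyses. In 5 of them the 95% interval reached 0: without the pair as a block, with it as a random block, with an intensity trend, without Smad1 CKO 3 and for the dimmer probe set. Being lower in all 3 pairs was common among bright probe sets, since 47% of the brightest 15012 met it with the deposited values and 20.6% after cyclic loess.

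Markers of cells known to make Epas1 were lower as well. All 12 endothelial markers were lower in all 3 pairs, with a median of -0.94 and pair medians of -0.72, -0.55 and -1.51. Their summed intensity was 5433 to 14889 in CKO lungs and 16020 to 22104 in wild type lungs. Of 9 type 2 markers, 8 were lower in all 3 pairs, with a median of -1.57 and pair medians of -1.10, -0.84 and -2.56. For comparison, 24.1% of all probe sets and 47% of the brightest 15012 were lower in all 3 pairs. So were 9 of 10 type 1, 3 of 10 fibroblast and smooth muscle, 3 of 8 erythroid, 2 of 9 macrophage and leukocyte and 0 of 12 striated muscle markers. The part of endothelial or type 2 cells in the Epas1 result was not tested.

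Hif1a, the more widely expressed alpha subunit, had intensities of 2234, 3557 and 1227 in Smad1 CKO lungs and 2646, 3122 and 2816 in wild type lungs. The CKO arrays lay on both sides of the narrow wild type range, CKO 2 above it and the others below. The difference was -0.42 ± 0.71 (95% interval -1.16 to 0.32; adjusted p = 0.434), with -0.24, 0.19 and -1.20 by pair, and it was -0.03 without pair 3 and 0.19 after cyclic loess. Of its other 3 probe sets, 2 were at -0.45 and -0.12, and the dimmest, at intensities of 31.5 to 76.4, was at 0.26 and higher in all 3 pairs. The subunits were thus at -0.39 (Epas1) and 0.19 (Hif1a) after cyclic loess, with pair values that did not overlap. With the deposited values they did overlap, at -0.63, -0.43 and -2.05 for Epas1 and -0.24, 0.19 and -1.20 for Hif1a. No test of the difference between these genes was run.

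Egln3 encodes a prolyl hydroxylase that marks HIF alpha subunits and is itself HIF-inducible. Its intensities were 561, 1173 and 306 in Smad1 CKO lungs and 790, 918 and 1022 in wild type lungs. The spread within the CKO group spanned the whole wild type range. The difference was -0.63 ± 1.05 (95% interval -1.61 to 0.36; adjusted p = 0.400), with -0.49, 0.35 and -1.74 by pair, and its dimmer probe set was at -0.27 ± 0.69. Without pair 3 it was -0.07. Relative to the pair 3 median of the brightest 15012 probe sets, Egln3 was at -0.78 in that pair.

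Among the genes of glucose uptake and glycolysis, Slc2a1 (GLUT1), a glucose transporter of the cell surface, had intensities of 738, 1467 and 440.03 in Smad1 CKO lungs, against 705, 904 and 1024 in wild type lungs. CKO 2 was the highest and CKO 3 the lowest of the 6 arrays. The difference was -0.15 ± 0.97 (95% interval -1.08 to 0.78; adjusted p = 0.818), with 0.06, 0.70 and -1.22 by pair. Without pair 3 it was 0.38 and after cyclic loess 0.36 (95% interval -0.11 to 0.82; adjusted p = 0.419). Its 3 probe sets were all higher in CKO lungs in pairs 1 and 2 and lower in pair 3.

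Hk2 encodes a hexokinase, which traps glucose in the cell by phosphorylating it. Its intensities were 442, 723 and 271 in Smad1 CKO lungs and 625, 608 and 503 in wild type lungs. CKO 2 was above the wild type range and both other CKO lungs were below it. The difference was -0.38 ± 0.58 (95% interval -1.03 to 0.28; adjusted p = 0.427), with -0.50, 0.25 and -0.89 by pair, and it was 0.08 after cyclic loess.

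Pgk1 encodes phosphoglycerate kinase, an ATP-producing enzyme of glycolysis, and lies on the X chromosome. Its intensities were 2403, 3726 and 911 in Smad1 CKO lungs and 2259, 2427 and 3541 in wild type lungs. Wild type 3 was far above the other wild type lungs here, so pair 3 combined a high wild type with a low CKO array. The difference was -0.42 ± 1.36 (95% interval -1.64 to 0.80; adjusted p = 0.618), with 0.09, 0.62 and -1.96 by pair, and its other 2 probe sets were at -0.47 and -0.32. Without pair 3 it was 0.35, and after cyclic loess it was 0.18. CKO 1 also differed from the other arrays in the X-linked Xist, at 1971 against 80.3 and 207 in the other CKO lungs and 66.2 to 97.4 in wild type lungs, and in the Y-linked Eif2s3y, at 12.7 against 525 and 133 in the other CKO lungs and 404 to 502 in wild type lungs. Pair 1 therefore differs in sex-linked genes as well, and the part of this in the Pgk1 value was not tested.

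Ldha encodes the lactate dehydrogenase subunit that favours lactate production. Its intensities were 4393, 6505 and 1520.3 in Smad1 CKO lungs and 4129, 4814 and 5369 in wild type lungs. The order of the arrays was that of Slc2a1, with CKO 2 highest and CKO 3 lowest. The difference was -0.43 ± 1.21 (95% interval -1.54 to 0.67; adjusted p = 0.568), with 0.09, 0.43 and -1.82 by pair. It was 0.26 without pair 3 and 0.21 after cyclic loess.

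Pdk1 encodes a kinase that switches off pyruvate dehydrogenase and so keeps pyruvate out of the mitochondrion. Its intensities were 498, 811 and 332 in Smad1 CKO lungs and 554, 538 and 618 in wild type lungs. CKO 2 stood well above a tight wild type group. The difference was -0.15 ± 0.74 (95% interval -0.91 to 0.61; adjusted p = 0.778), with -0.15, 0.59 and -0.89 by pair, and it was 0.22 without pair 3 and 0.31 after cyclic loess. Its other probe sets disagreed in size, at -0.35, -0.81 and, for a dim one with intensities of 17.3 to 35.6, 0.30.

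Bnip3 encodes a mitochondrial outer membrane protein that promotes the removal of mitochondria. Its intensities were 2113, 3556 and 1171 in Smad1 CKO lungs and 2271, 2527 and 2497 in wild type lungs. Again CKO 2 was above and both other CKO lungs were below the wild type range. The difference was -0.23 ± 0.80 (95% interval -1.04 to 0.57; adjusted p = 0.670), with -0.10, 0.49 and -1.09 by pair. After cyclic loess Bnip3 was higher in all 3 pairs, at 0.14, 0.50 and 0.45, with a mean of 0.36, as was Pdk1 (0.18, 0.63 and 0.13). Of the brightest 15012 probe sets, 21.4% were higher in all 3 pairs after that step.

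Ankrd37, an ankyrin repeat gene known as a HIF target, departed from the other inducible members. Its intensities were 524, 739 and 289 in Smad1 CKO lungs, against 942, 839 and 696 in wild type lungs. Each CKO lung was below the wild type lung of its pair, and CKO 2, the highest array for 8 other members, was here below wild type 1 and 2. The difference was -0.76 ± 0.54 (95% interval -1.40 to -0.13; limma, adjusted p = 0.367), with -0.84, -0.18 and -1.26 by pair. Without pair 3 it was -0.51 and after cyclic loess -0.28 (-0.52, -0.15 and -0.18 by pair). Its size thus depended on that pair and on the scaling. The direction was the same in 13 of 13 alternatives, but those of the block, the trend, the dim probe sets and the choice of probe set could not change it. Ankrd37 has 1 probe set, so no other probe set bears on it. Of the brightest 15012 probe sets, 47% were lower in all 3 pairs with the deposited values and 20.6% after cyclic loess.

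**Figure D2:**
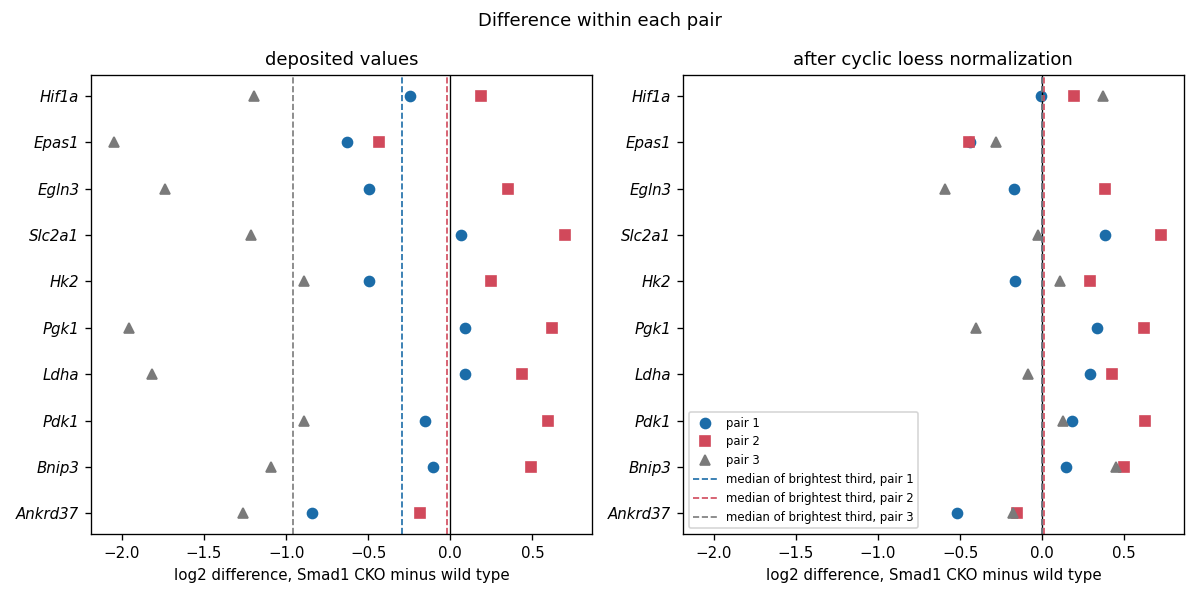
Log2 difference, Smad1 CKO minus wild type, within each pair for the 10 genes, with the deposited values in the left panel and after cyclic loess normalization in the right, and dashed lines at the pair medians of the brightest 15012 probe sets. With the deposited values pair 3 lies between -2.05 and -0.89 for all members, and in the right panel its members lie between -0.59 and 0.45.

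Set against bright probe sets in general, the members' low values in pair 3 were common and their high values in pair 2 less so. Smad1 CKO 3 was the lowest of the 6 arrays for 10 of 10 members, against 81.6% of the brightest 15012 probe sets. Smad1 CKO 2 was the highest for 8 of 10 members, against 29.4% of those probe sets. The members' median difference was -0.20, 0.39 and -1.24 in pairs 1 to 3 and -0.42 over all pairs. Over all pairs, the median of the brightest 15012 probe sets was near this, at -0.45, and that of all probe sets was 0.00. The members' median was 0.08 without pair 3 and 0.18 after cyclic loess, so its direction depended on both. Relative to the bright median of the same pair, 6 members were above it in pair 1, 8 in pair 2 and 2 in pair 3.

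**Figure D3:**
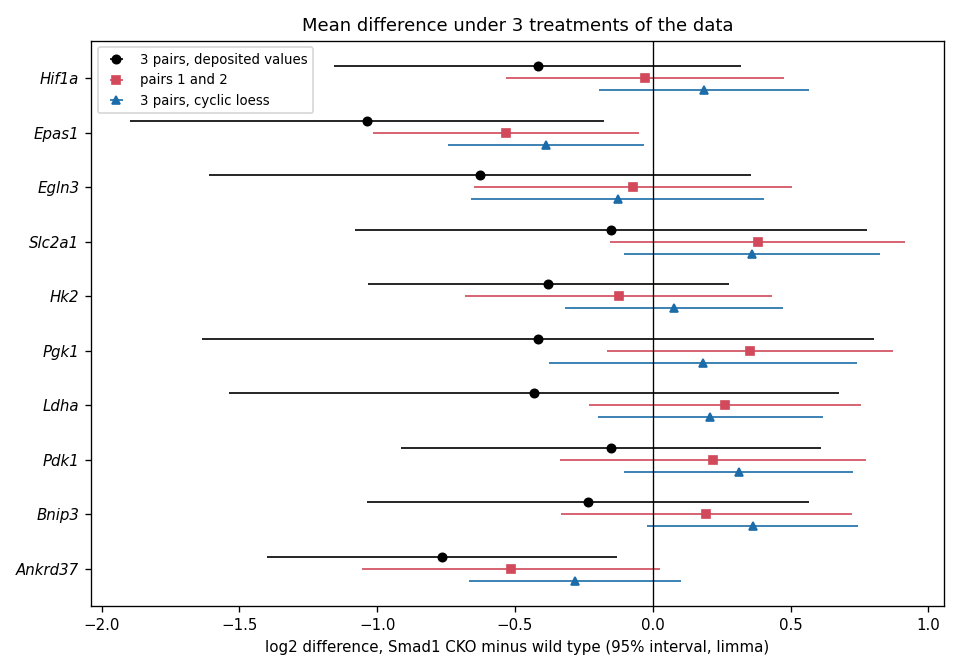
Mean log2 difference, Smad1 CKO minus wild type, with its 95% interval from limma for each gene, using all 3 pairs with the deposited values (circles), pairs 1 and 2 only (squares) and all 3 pairs after cyclic loess normalization (triangles). Epas1 is below 0 with its whole interval in these 3 cases (as in 8 of the 13 alternatives), Ankrd37 is below 0 in its means, and 5 genes (Slc2a1, Pgk1, Ldha, Pdk1 and Bnip3) are below 0 with all pairs but above 0 in both other cases.

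Other genes of glycolysis were read from a list of 24, of which 21 had a probe set of their own, the 5 members above among them. By adjusted p, 0 rose and 0 fell, and the median difference was -0.35, with -0.08, 0.29 and -1.15 by pair. In pair 2, 18 of the 21 were higher in the CKO lung, against 50.9% of all probe sets and 44.6% of the brightest 15012, which hold 17 of the 21. Along the pathway, pair 2 gave 0.69 for Pfkl (phosphofructokinase, the committed step), 0.41 for Aldoa (aldolase) and 0.88 for Tpi1 (triosephosphate isomerase). It gave 0.29 for Pgam1 (phosphoglycerate mutase) and 0.28 for Pkm (pyruvate kinase). In pair 1 these 5 genes were at 0.43, -0.12, 0.31, -0.08 and -0.17, and in pair 3 between -2.11 and -0.81, so none kept 1 direction. Gapdh has control probe sets on this array, and the 3′ one read 7786, 8748 and 2501 in Smad1 CKO lungs and 7390, 6849 and 8694 in wild type lungs. CKO 3 was the lowest array in all 3 Gapdh control probe sets, while the highest was CKO 2 in the 3′ one and wild type 3 in both others.

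A few genes of glucose handling left this pattern. Slc2a3 (GLUT3), a second glucose transporter, had intensities of 70.1, 156 and 99.5 in Smad1 CKO lungs, against 191, 194 and 162 in wild type lungs. All CKO lungs were below all wild type lungs, as for 5.36% of all probe sets. The difference was -0.82 ± 0.57 (limma, adjusted p = 0.367), with -1.43, -0.32 and -0.70 by pair. The glycolysis list held 3 genes (14.3%) lower in all 3 pairs, against 24.1% of all probe sets and 47% of the brightest 15012. They were Slc2a3 and, named after their values were seen, Hk1 at -0.37 and Pfkfb3 at -0.51. Slc16a3 (MCT4), which exports lactate, was at 0.27 ± 0.28, with 0.57, 0.24 and 0.02 by pair, at intensities of 55.3 to 88.1. It was thus higher in all 3 pairs, as were 22.7% of all probe sets, but nearly level in pair 3.

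Of the genes that govern the entry of pyruvate into the mitochondrion, 13 of 14 were measured and 0 passed the threshold. They had a median of -0.50, with -0.28, 0.03 and -1.11 by pair, and 5 (38.5%) were lower in all 3 pairs, against 24.1% of all probe sets and 47% of the brightest 15012, which hold 11 of the 13. Pdk4, a relative of Pdk1 known to respond to fasting and glucocorticoids, had intensities of 189, 243 and 82.2 in Smad1 CKO lungs and 333, 298 and 167 in wild type lungs. Each CKO lung was below its paired wild type lung, at -0.71 ± 0.37 (limma, adjusted p = 0.367), with -0.81, -0.29 and -1.01 by pair. Pdk2 was at -0.25 ± 0.35, or -0.08 without pair 3. Pdk1 and Pdk4, which inhibit the same enzyme, lay on opposite sides of 0 in pair 2, at 0.59 and -0.29, a contrast that was not tested. The 9 measured of 11 genes of mitophagy, the pathway of Bnip3, gave 0 calls and had a median of -0.48, with -0.26, 0.00 and -1.12 by pair.

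The regulators of HIF gave 0 calls among 16 genes, Hif1a, Epas1 and Egln3 among them, with a median of -0.40 and -0.33, -0.01 and -0.94 by pair. Arnt, the beta subunit, was nearly level, at 515, 682 and 675 in Smad1 CKO lungs and 579, 637 and 640.4 in wild type lungs, a difference of 0.00 ± 0.15. Egln1, the main prolyl hydroxylase, had intensities of 1174, 1337 and 493 in CKO lungs and 1513, 1430.1 and 1397 in wild type lungs. All CKO lungs were below all wild type lungs (-0.65 ± 0.75, limma, adjusted p = 0.367), as for 5.36% of all probe sets. Egln1 is bright, and Smad1 CKO 3 was the lowest array for 81.6% of the brightest 15012. By pair Egln1 was at -0.37, -0.10 and -1.50, and at -0.23 without pair 3. Egln2, the third hydroxylase of the family, was at -0.01 ± 0.31. Vhl, which binds the hydroxylated subunit for destruction, was at -0.13 (-0.09 without pair 3) and Hif1an, an asparagine hydroxylase that blocks HIF activity, at -0.35 (-0.23). Hif3a, a further alpha subunit, was at -0.41 and Cited2, which competes with HIF for a coactivator, at -0.54, neither past the threshold. Without pair 3 these were -0.15 for Hif3a and 0.02 for Cited2. Of the 16, 6 (37.5%) were lower in all 3 pairs, against 24.1% of all probe sets and 47% of the brightest 15012, which hold 13 of the 16, and 0 were higher, against 22.7% of all probe sets.

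A wider list of hypoxia-inducible genes likewise gave 0 calls. The 25 measured of 27 listed genes, which include 5 members and share 2 genes (Slc2a1 and Pdk1) with the glycolysis list, had a median of -0.38, with -0.23, 0.27 and -1.22 by pair. In pair 2, 21 of the 25 were higher in the CKO lung, against 50.9% of all probe sets and 44.6% of the brightest 15012, which hold 23 of the 25. Vegfa, the endothelial growth factor gene that HIF induces, was at 1739, 2124 and 1116 in Smad1 CKO lungs and 2441, 2392 and 2345 in wild type lungs. All CKO lungs were below all wild type lungs for this bright gene, as for 5.36% of all probe sets. Of the brightest 15012, however, 47% were lower in all 3 pairs and 81.6% had Smad1 CKO 3 as the lowest array. The difference of Vegfa was -0.58 ± 0.46 (limma, adjusted p = 0.367), with -0.49, -0.17 and -1.07 by pair and -0.33 without pair 3. Adm (adrenomedullin) was higher in CKO lungs in pairs 1 and 2, at 500, 476 and 172 in CKO lungs and 308, 301 and 312 in wild type lungs, or 0.70, 0.66 and -0.86 by pair. Ndrg1 was at 0.05, 0.69 and -0.95, P4ha1, a collagen prolyl hydroxylase, at -0.27, 0.27 and -1.33, and Ddit4, an inhibitor of mTOR signalling, at -0.50, 0.08 and -1.37. Car9, a carbonic anhydrase often used as a mark of hypoxia, stayed dim, at 42.3 to 106 in CKO lungs and 51.1 to 63.5 in wild type lungs. Over the 69 pathway genes that are no members, 0 passed the threshold, 20 (29%) were lower and 2 higher in all 3 pairs, with a median of -0.40, or -0.09 without pair 3. That share lower is near the 24.1% of all probe sets and below the 47% of the brightest 15012, which hold 58 of the 69.

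**Figure D4:**
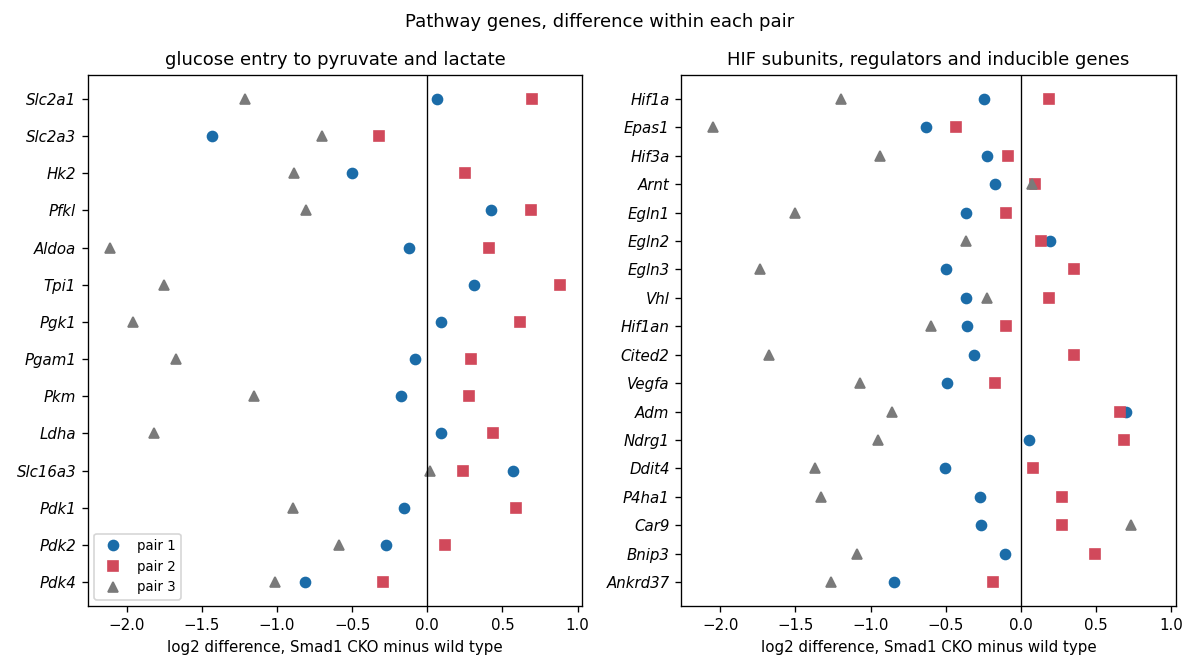
Log2 difference, Smad1 CKO minus wild type, within each pair for named genes from glucose entry to pyruvate and lactate (left) and for HIF subunits, regulators and inducible genes (right), 1 point per pair. Squares of pair 2 lie right of 0 for most glycolytic genes and left of 0 for Slc2a3, Pdk4, Epas1, Egln1, Vegfa and Ankrd37 among others, and triangles of pair 3 lie left of 0 except for Slc16a3, Arnt and Car9.

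Levels of other cell types that could carry these transcripts are given for comparison, and their part in the results was not tested. Erythroid markers, of red cells that hold GLUT1 in fetal mice, summed to 971 to 2112 in CKO lungs and 2344 to 3103 in wild type lungs over 8 genes. Alas2 alone read 338 to 1501 in CKO lungs and 1614.7 to 2266.5 in wild type lungs. The median difference of the 8 genes was 0.27, with 0.30, -0.10 and 0.08 by pair and 0.11 without pair 3. Some of them were dim, such as Hba-a1 at 16.9 to 47.4. Striated muscle markers, of a glycolytic tissue, summed to 1945 to 4564 in CKO lungs and 3290 to 5253 in wild type lungs over 12 genes, with CKO 2 at 4564 and wild type 2 at 3290 in pair 2. Type 1 cell markers had a median of -0.79 over 10 genes, with -0.34, -0.30 and -1.56 by pair and -0.31 without pair 3. Fibroblast and smooth muscle markers had -0.60 over 10, with -0.14, 0.04 and -1.56 by pair and -0.05 without pair 3. Macrophage and leukocyte markers had -0.16 over 9, with -0.17, 0.11 and -0.39 by pair and 0.01 without pair 3.

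The 10 members followed similar courses over the arrays. Centred within pairs, their levels correlated with the members' mean course at 0.865 (Ankrd37) to 0.996 (Egln3) over 6 arrays. Such a course has only 1 free value per pair, and the arrays share the shift of pair 3, so high values are easily reached: 315 of 16168 other genes (1.95%) exceeded 0.99. The 5 genes most like it were Pop7, Idh3a, Mlycd, Erg28 and Nsun4, with Idh3a, a subunit of mitochondrial isocitrate dehydrogenase, at -0.17, 0.20 and -0.82 by pair.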

How the data were processed

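Total RNA of 6 left lung lobes was purified with a Qiagen kit and hybridised as biotin-labelled cRNA, 1 array per animal, per the labels' protocols. The authors deposited an intensity per probe set, linear by its range, and the submitters' processing notes name RMA. No version or setting is given in the sources used here. The deposited arrays did not share 1 distribution of values, with upper quartiles from 170 (Smad1 CKO 3) to 284 (wild type 2). Scanner values were not used.

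Intensities were turned into log2(value + 1), which slightly shrinks differences of dim probe sets, and 64 control probe sets were left out. Genotype was tested on the other 45037 probe sets with limma 3.58.1 in R 4.3.3 (lmFit, eBayes, two-sided) with pair as a blocking factor, and p-values were adjusted by Benjamini-Hochberg over all of them, with a threshold of 0.05. All adjusted p-values are from this fit or its named alternative. Pairing rests on the design text and on a letter shared by 2 array names; deviations from group means correlated at 0.258, 0.604 and 0.597 within pairs and at 0.215 or lower between them. Exact permutation within 3 pairs cannot go below p = 0.25, so none was used. With 3 animals per genotype, their number limits the precision, and p-values measure only the spread between these samples.

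Only the 34945 probe sets with 1 symbol were named. Gpi1, Eno1 and Bnip3l had no probe set of their own symbol alone and are not reported; Gapdh is given from its control probe set. The 10 members, the gene lists and the other named genes (a fixed set of pathway genes, whatever their values) were chosen with earlier results of these data known. List counts are descriptions without a set test. Promoters come from RefSeq (GRCm38.p6). The fit was tested on simulated data. Alternatives covered the block, normalization, pseudocount, dim probe sets, eBayes trend, left-out replicates and the choice of probe set.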

Additional observations from a re-analysis of the deposited data

How the results depend on the processing

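No member passed an adjusted p of 0.05 in any of the 13 alternatives, of which 1, pairs 1 and 2 with cyclic loess, was chosen after seeing the data. Epas1 (-1.34 to -0.32) and Ankrd37 (-1.05 to -0.28) were below 0 in all 13. The alternatives of the block, the trend and the dim probe sets cannot change a member's mean difference. For Ankrd37 the choice of probe set cannot change it either. Other members turned their sign, for which the cause was not tested. After quantile normalization the differences were 0.28 for Slc2a1, 0.11 for Pgk1, 0.18 for Ldha, 0.24 for Pdk1, 0.33 for Bnip3 and 0.16 for Hif1a. After cyclic loess they were 0.36 for Slc2a1, 0.076 for Hk2, 0.18 for Pgk1, 0.21 for Ldha, 0.31 for Pdk1, 0.36 for Bnip3 and 0.19 for Hif1a, and the mitophagy median was 0.11. Leaving out 1 pair at a time gave -0.58 to 0.38 for Slc2a1, -0.93 to 0.35 for Pgk1, -0.87 to 0.26 for Ldha, -0.52 to 0.22 for Pdk1 and -0.60 to 0.19 for Bnip3, each positive only without pair 3. Without Smad1 CKO 3 alone, unpaired, they were 0.26, 0.15, 0.17, 0.16 and 0.17. Without pair 3 and with cyclic loess they were 0.55, 0.48, 0.36, 0.41 and 0.32, with 0.063 for Hk2, 0.11 for Egln3 and 0.094 for Hif1a. The counts over all probe sets, 0 higher and 1 lower by adjusted p and 1931 higher and 3781 lower by unadjusted p, moved widely. Without the replicate block (the pairing ignored) 0 were lower by adjusted p, and 388 higher and 1255 lower by unadjusted p; Epas1 then kept its difference at an adjusted p of 0.586. With the pair as a random block 6 were lower. By adjusted p, 0 were lower after quantile normalization, 2 after cyclic loess, 0 with a pseudocount of 16, 17 without the dimmest probe sets, 30 lower and 2 higher with an intensity trend, and 0 lower and 1 higher without Smad1 CKO 3. By unadjusted p, 2391 were lower after quantile normalization, 3029 higher after cyclic loess, 1191 higher with a pseudocount of 16, 1162 higher without the dimmest probe sets, 4110 higher with the trend, and 480 higher and 1068 lower without Smad1 CKO 3. Leaving out 1 pair gave 0 to 24 lower and 0 to 4 higher by adjusted p, and 593 to 7019 lower and 62 to 3615 higher by unadjusted p. Without pair 3 and with cyclic loess, 0 were lower by adjusted p, and 1043 were higher and 1911 lower by unadjusted p. The median of all probe sets was -0.23 without the dimmest ones, by construction, since bright probe sets were lower. Signal over background was not measured, so the dim probe sets of Hif1a and Pdk1 and the level of Car9 are limited by it.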
